A study of Xenopus laevis with 51 samples.

Results

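The genes described here are the histone lysine demethylases and methyltransferases of Xenopus laevis that are named by the KDM, JHDM1D, SETD, MLL, SUV, EHMT and DOT1L symbols. They were matched by symbol alone, and 56 of the 24381 entries of the expression table matched, carrying 35 of its 13474 symbols. The list of symbols was drawn up with earlier results of these data known. Because this frog has a duplicated genome, 21 of the 35 symbols had 2 entries, which were kept apart and are called a and b here. The remaining 14 symbols had 1 entry. The files do not state which entry is the L and which the S homeolog. NSD1 and the newer KMT names were not analysed here. A symbol does not show an activity: SETD3 methylates a histidine of actin, and no methyltransferase activity is established for MLL5.

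The samples were 51 libraries of total RNA from albino animals of 1 supplier, in 17 groups of 3 libraries. Hindbrain was taken from tadpoles transected across the whole spinal cord at stage 53 (SCI), after 3 days, 7 days or 3 weeks, and from unoperated tadpoles that the labels describe as matched in age to each of these times. Juvenile frogs, 1 to 3 months past metamorphosis, were transected in the same way and sampled at the same times, and their 3 groups share a single unoperated control group. Eyes of juvenile frogs were taken 3 days, 11 days or 3 weeks after an optic nerve crush on 1 side (ONC), with the contralateral eyes of the same frogs as controls, and eyes of frogs with no surgery formed a further naive group. Tadpole SCI and frog ONC were studied as injuries after which axons regrow, and frog SCI as an injury after which they do not. Each library pooled 5 hindbrains or 6 eyes, so p-values measure the spread between pools. All cell types of the tissue were in the pool, and fewer cells of a type and less RNA per cell cannot be told apart. The titles of the 3 unoperated frog hindbrain libraries carry a letter R that the labels do not explain and no other library carries, so that this letter and the unoperated state cannot be told apart. A letter B, likewise not explained, is on 8 eye libraries, namely ONC replicates 1 and 3 and contralateral replicate 3 of 3 days, and ONC replicates 1 and 3 and all 3 contralateral libraries of 11 days. The naive and 3-week eyes carry none, so that in the contralateral eye at 11 days this letter and the difference from naive eyes cannot be told apart.

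Values are FPKM, read numbers scaled by the depth of the library and by gene length, so that levels of different genes can be set side by side. They summed to 374367 to 493408 in hindbrain and 616382 to 1209699 in eye libraries, where lens crystallins took 25.02% to 46.04%. Replicates correlated at 0.987 to 0.995 in hindbrain and 0.947 to 0.993 in eye. The value of 1 read, estimated from steps among weak genes, ranged from 0.747 to 1.754 relative to the median library. Hindbrain HOX markers (2 of 4 symbols found) summed to 17.02 FPKM or more in every hindbrain library and to at most 0.7756 FPKM in eyes, where photoreceptor markers summed to 6143 FPKM or more. Photoreceptor and lens markers were also found in some hindbrain libraries, up to 43.68 and 130.9 FPKM.

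Methyl groups on histone lysines are written by SET-domain enzymes and by DOT1L, and erased by the amine oxidase KDM1A and by Jumonji-domain demethylases. Methylation of H3K4, H3K36 and H3K79 marks transcribed genes, whereas methylation of H3K9, H3K27 and H4K20 is found on silent or compacted chromatin. In the nervous system, enzymes of both kinds take part in the passage from dividing progenitors to neurons and glia.

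All but the weakest members were well expressed. Mean levels over the 51 libraries ran from 0.152 FPKM for SUV39H1-a, a H3K9 methyltransferase of heterochromatin that was listed at 0 in 3 libraries, to 34.0 FPKM for KDM4A-b, a demethylase of H3K9 and H3K36. Over single libraries KDM4A-b ran from 22.9 FPKM through a median of 33.1 to 45.6 FPKM, and SUV39H1-a reached at most 0.42 FPKM with a median of 0.1275. The median of the 56 means was 9.92 FPKM. Only 3 members lay below 1 FPKM, 25 lay between 1 and 10 FPKM, and 28 reached 10 FPKM or more. A member was tested where the mean of a compared group reached 0.45 FPKM, which 54 did in all 19 comparisons, SUV39H2-a in 9 and SUV39H1-a in none. A member was called where the limma p was 0.05 or less after Benjamini-Hochberg adjustment across every entry tested. Changes are differences of log2(FPKM + 0.5), operated minus control.

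**Figure D1:**
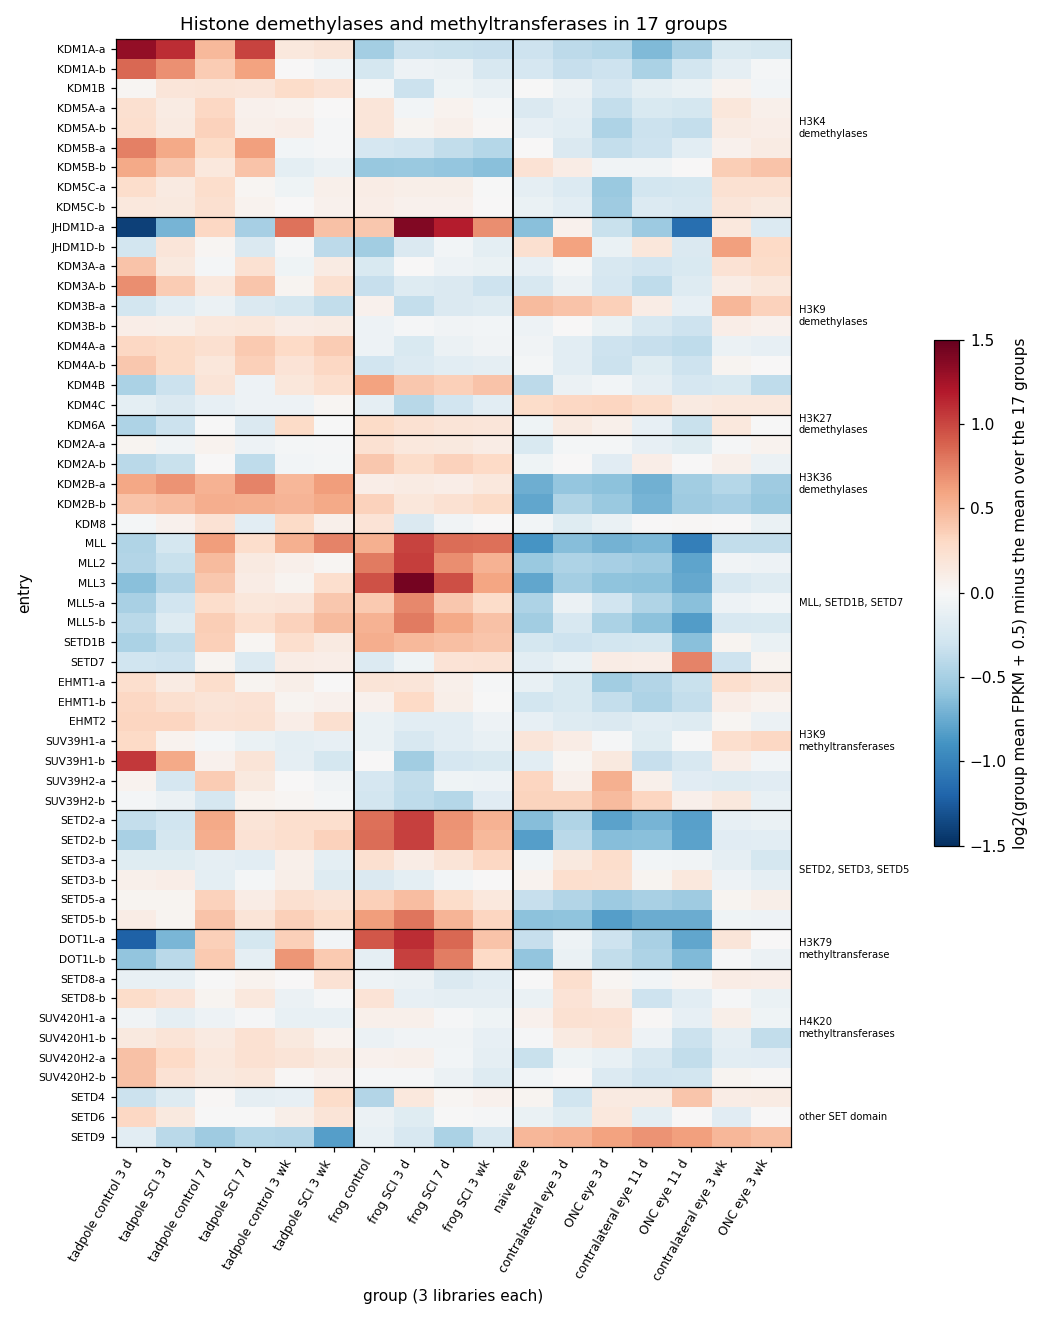
Level of each of the 56 entries (vertical axis, by role or family) in each of the 17 groups (horizontal axis), as the colour of log2(group mean FPKM + 0.5) minus the entry's mean over the groups. The strongest contrasts lie between tissues, ages and stages, and JHDM1D-a, with 30.92 FPKM in the unoperated frog hindbrain and 14.87 FPKM in the naive eye, is among the most variable entries.

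Few of the members were called after injury. Over the 9 comparisons of operated with control tissue, 6 members were called at least 1 time, namely JHDM1D-a, DOT1L-b, KDM1A-a, KDM3B-a, MLL and SETD7. The share of all entries called at least 1 time was not computed. In the tadpole hindbrain, 1 of 54 was called at 3 days, against 1.85% of all entries, 2 of 55 at 7 days, against 4.91%, and 0 of 54 at 3 weeks, against 0.101%. In the frog hindbrain, 4 of 54 were called at 3 days, against 11% of all entries (66.7% of the calls were higher, or 52.9% under median-of-ratios scaling), 3 of 54 at 7 days, against 1.42%, and 0 of 54 at 3 weeks, against 0.403%. In the ONC eye, 0 of 55 were called at 3 days, against 0.19%, 2 of 54 at 11 days, against 2.86%, and 0 of 54 at 3 weeks, against 0.612%. At an unadjusted limma p under 0.05, 10 members passed in the 3-week tadpole comparison, 19 in the 3-week frog comparison, and 1 in each of the ONC comparisons at 3 days and 3 weeks. In the comparisons with calls, 10 and 16 passed in tadpoles at 3 and 7 days, 19 and 10 in frogs, and 5 in ONC eyes at 11 days. The share of all entries at this unadjusted p was not computed, so these counts cannot be set against it. The shares of members called were near or below those of all entries in each comparison except frog SCI at 7 days, where the 3 called members, all higher, stood beside 0.955% of entries called higher.

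JHDM1D, also named KDM7A, is a Jumonji-domain demethylase of H3K9 and H3K27. Its entry a is deposited at 97327 to 190602 on the plus strand of JGI v7b scaffold 000033059, and it moved in both hindbrain experiments and in the eye. In tadpoles at 3 days, control libraries held 9.11, 7.92 and 8.44 FPKM and SCI libraries 17.4, 12.9 and 12.0 FPKM. All SCI values lay above all controls, a change of 0.68 (SE 0.13, limma adjusted p = 0.042). The labels describe these controls as matched in age, but their titles give no time, unlike those of the later tadpole controls. Every tadpole SCI result at 3 days rests on them. The call was lost without any 1 of the 6 libraries, with adjusted p from 0.0557 to 0.14, and with no minimal expression (adjusted p = 0.0704). Same-numbered libraries of these 2 groups deviated together, but the labels do not state that the numbers mark pairs. With the number as a block the limma adjusted p was 0.0138.

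At 7 days the order in tadpoles was the opposite, and the level had changed mostly in the controls. The control mean was 8.487 FPKM at 3 days and 28.92 FPKM at 7 days, whereas the SCI mean was 14.1 and 16.28 FPKM. The SCI mean of 3 days thus lay between the control means of 3 and 7 days. As the titles of the 3-day controls give no time, the part of a difference in age was not tested. JHDM1D-a stood at 33.2, 26.8 and 26.8 FPKM in controls and at 13.5, 15.8 and 19.6 FPKM after SCI. It fell by 0.82 on the log2 scale (SE 0.14, limma adjusted p = 0.0207), and the groups did not overlap. This change remained past the threshold in 3 of the 6 fits without 1 library. At 3 weeks the controls, at 41.5, 47.6 and 34.4 FPKM, overlapped the SCI libraries at 30.1, 38.2 and 27.01 FPKM.

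Transected frogs had more JHDM1D-a RNA at 3 and 7 days. Unoperated frogs held 30.8, 31.6 and 30.4 FPKM, transected frogs 69.8, 58.7 and 56.6 FPKM at 3 days and 57.8, 49.2 and 52.2 FPKM at 7 days. Every transected library of these times lay above every control. The changes were 0.98 (SE 0.08, limma adjusted p = 0.00227) and 0.77 (SE 0.07, limma adjusted p = 0.00563), and both were called in all 13 alternatives tried. Each alternative kept controls with the letter R. At 3 weeks the transected libraries, at 43.5, 35.7 and 35.0 FPKM, still lay above every control. Their change of 0.29 was not called (limma adjusted p = 0.14).

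In the eye, JHDM1D-a was lower in ONC than in contralateral eyes at 11 days. The ONC libraries held 11.2, 9.73 and 10.03 FPKM and the contralateral ones 15.03, 17.2 and 14.9 FPKM, without overlap. It fell by 0.58 on the log2 scale (SE 0.11, limma adjusted p = 0.0286). The call was lost in each fit without 1 library (adjusted p 0.0575 to 0.133), including the one that left only libraries with the letter B, with replicate number as a block (0.0755), and with all eye groups in 1 fit (0.21). Oligodendrocyte markers (4 of 4 symbols) also stood lower, at 54.13 to 73.32 FPKM after ONC and 88.63 to 112.3 FPKM contralaterally. Neuron markers stood higher, at 1527 to 1857 against 832.2 to 877.6 FPKM, as did dividing-cell markers, at 78.13 to 102.9 against 66.73 to 76.96 FPKM. The part of these cell types was not tested. Against naive eyes, at 16.8, 13.0 and 14.8 FPKM, the same ONC libraries were lower by a change of -0.50 (limma adjusted p = 0.0232). At 3 days the 2 groups overlapped, with 16.3, 22.8 and 15.6 FPKM after ONC and 24.0, 35.8 and 12.8 FPKM contralaterally. JHDM1D-b was also lower in the ONC eyes of 11 days than in naive eyes (change -0.46, limma adjusted p = 0.0135). It was not called in any of the 9 comparisons of operated with control tissue. It came nearest in frogs at 7 days, with 6.48, 8.30 and 8.17 FPKM in controls and 10.99, 9.83 and 11.7 FPKM after SCI, without overlap (change 0.48, limma adjusted p = 0.0826).

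DOT1L is the only known methyltransferase of H3K79, a mark laid down over the bodies of transcribed genes. Its entry b is deposited at 2240151 to 2305836 on the plus strand of JGI v7b scaffold 000072621. In the frog, entry b held 12.0, 11.8 and 12.2 FPKM without injury, and 31.3, 26.7 and 24.9 FPKM 3 days after SCI. At 7 days it held 26.8, 20.9 and 21.1 FPKM. Every transected library of both times lay above every control, with changes of 1.16 (SE 0.09, limma adjusted p = 0.00203) and 0.90 (SE 0.10, limma adjusted p = 0.0101). The call at 3 days was kept in all 13 alternatives, and that at 7 days was lost only without control replicate 2 (limma adjusted p = 0.0545). Here too each alternative kept controls with the letter R. At 3 weeks DOT1L-b held 19.3, 15.5 and 14.4 FPKM, again above every control, but the change of 0.43 was not called (limma adjusted p = 0.0931).

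Entry a of DOT1L did not follow. It held 34.8, 37.4 and 41.8 FPKM in unoperated frogs and 47.2, 42.6 and 38.9 FPKM 3 days after SCI, so the groups overlapped (change 0.17, limma adjusted p = 0.257). At 3 weeks it held 25.3, 26.3 and 28.3 FPKM, below every control, a change of -0.50 with a limma adjusted p of 0.0539. In tadpoles at 3 days DOT1L-a held 14.8, 10.1 and 11.2 FPKM after SCI and 9.42, 7.34 and 7.86 FPKM in controls. Its change of 0.52 had a limma adjusted p of 0.0935, and of 0.0161 with replicate number as a block, which raised the members called in this comparison to 2, beside 5.11% of all entries.

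**Figure D2:**
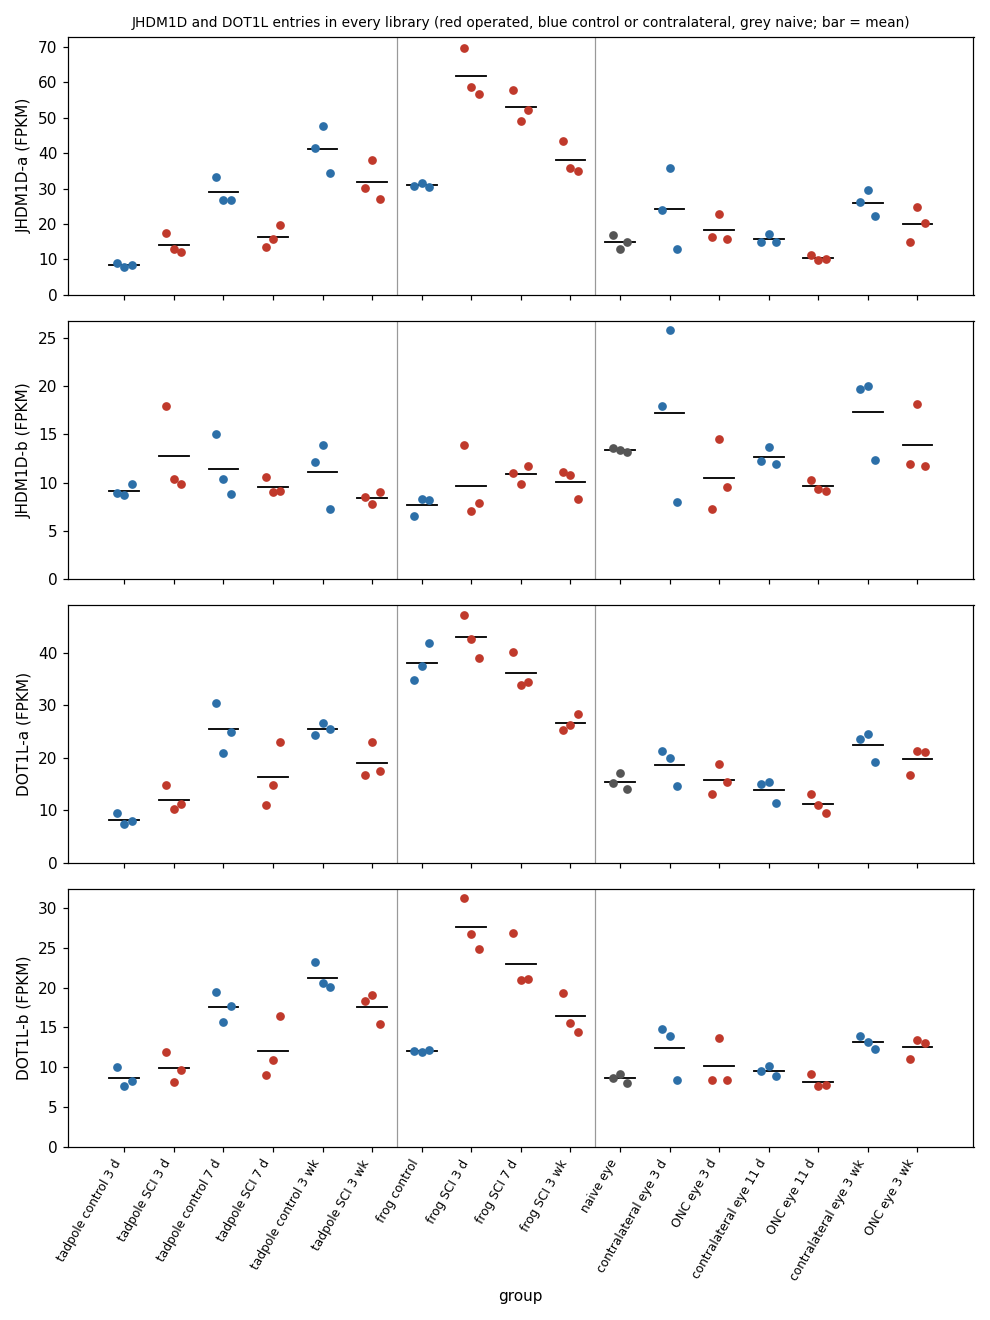
FPKM (vertical axes, from 0) of the JHDM1D and DOT1L entries in every library, as points by group (horizontal axis) with the group mean as a bar. JHDM1D-a and DOT1L-b lie above all unoperated frog libraries at 3 days, 7 days and 3 weeks after frog SCI. In the tadpole JHDM1D-a lies above its controls at 3 days and below them at 7 days.

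Of the other members, MLL and KDM3B-a were called after frog SCI at 3 days. MLL, also KMT2A, is a H3K4 methyltransferase that maintains HOX gene expression. It held 14.1, 15.1 and 16.4 FPKM in controls and 23.2, 22.6 and 18.2 FPKM after SCI. The SCI libraries were all higher, with a change of 0.47 (SE 0.11, limma adjusted p = 0.0319), which remained called in 1 of 6 fits without 1 library.

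KDM3B removes methyl groups from H3K9. Its weaker entry a fell from 4.60, 4.85 and 4.67 FPKM to 3.54, 3.34 and 3.28 FPKM, without overlap (change -0.42, SE 0.10, limma adjusted p = 0.0383). Leaving out any 1 library ended this call, as did the replicate block (0.0527) and the absence of a minimal expression (0.0568). The stronger entry b, at 18.2, 19.97 and 19.7 FPKM in controls, stood at 20.04, 20.7 and 19.4 FPKM after SCI, with overlap. Oligodendrocyte markers summed to 14520 to 16180 FPKM in unoperated frogs and to 19620 to 21040 FPKM at 3 days. Lens markers (5 of 5 symbols) summed to 3.176 to 52.28 and 57.42 to 99.24 FPKM, and erythroid markers (3 of 4 symbols) to 853.5 to 1212 and 1319 to 1491 FPKM, in the same 2 groups. The part of these cell types in the changes at 3 days was not tested. At 7 days oligodendrocyte markers summed to 18320 to 20320 FPKM, macrophage markers (2 of 4 symbols) to 5.911 to 7.39 FPKM beside 2.635 to 4.886 FPKM in unoperated frogs, and neuron markers (5 of 5 symbols) to 2604 to 2936 FPKM beside 2385 to 2514 FPKM. Erythroid markers were lower at 7 days, at 722.8 to 795.5 FPKM. None of these groups overlapped, and their part in the changes of JHDM1D-a, DOT1L-b and SETD7 at 7 days was not tested.

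KDM1A, also LSD1, demethylates H3K4 within the CoREST complex. In the tadpole at 7 days, entry a held 13.9, 14.99 and 14.4 FPKM in controls and 21.1, 23.0 and 19.2 FPKM after SCI. All SCI values were higher, with a change of 0.53 (SE 0.09, limma adjusted p = 0.0213), kept in 2 of 6 fits without 1 library. Entry b changed by 0.23, which was not called (limma adjusted p = 0.135). At 3 days the order of entry a was the other way, with 22.7, 22.6 and 22.4 FPKM after SCI below 26.1, 25.4 and 27.01 FPKM in controls, but this was not called. From 3 to 7 days its mean went from 26.16 to 14.44 FPKM in controls and from 22.56 to 21.14 FPKM after SCI.

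Markers of dividing cells (7 of 7 symbols) moved alongside. They summed to 65.11 to 68.96 FPKM in tadpole controls of 7 days and to 113.4 to 146.8 FPKM after SCI, and at 3 days to 236.5 to 269.8 FPKM in controls and 162.9 to 186.6 FPKM after SCI. Oligodendrocyte markers moved the other way, from 5026 to 5256 FPKM in controls of 7 days to 3651 to 4259 FPKM after SCI, and at 3 days from 2370 to 2546 FPKM in controls to 3374 to 3639 FPKM after SCI. The part of either in the changes of KDM1A-a and JHDM1D-a was not tested.

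The tadpole result at 7 days depended on which library was left out. In SCI replicate 3, MLL stood at 18.2 FPKM, beside 8.60 and 10.7 FPKM in the other SCI libraries and 14.2, 16.3 and 18.0 FPKM in controls. MLL3, or KMT2C, a H3K4 methyltransferase of enhancers, behaved alike, at 2.99, 3.40 and 7.08 FPKM after SCI and 6.86, 4.55 and 5.32 FPKM in controls. SETD2-b, the enzyme that trimethylates H3K36 behind RNA polymerase, held 4.68, 5.12 and 9.07 FPKM after SCI and 8.85, 7.45 and 7.70 FPKM in controls. Lens markers summed to 84.49 and 81.11 FPKM in SCI replicates 2 and 3 and to 2.578 FPKM in replicate 1. With SCI replicate 3 left out, 12 of 55 members were called, beside 14.8% of all entries. Of these, 10 were lower, namely MLL (-0.72), MLL2 (-0.68), MLL3 (-0.70), SETD1B (-0.63), both SETD2 entries (-0.74 and -0.65), both DOT1L entries (-0.94 and -0.80), KDM2A-b (-0.54) and JHDM1D-a (-0.96), and 2 were higher, KDM1A-a (0.60) and the H3K4 demethylase KDM5B-a (0.36). Without SCI replicate 2, or without control replicate 1 or 2, 0 members were called.

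SETD7 monomethylates H3K4 and several proteins that are not histones. At 11 days after ONC it held 27.2, 20.7 and 27.6 FPKM, beside 16.5, 15.7 and 15.2 FPKM in contralateral eyes. Each ONC library was higher, with a change of 0.64 (SE 0.13, limma adjusted p = 0.0372). The call was kept in 1 of 6 fits without 1 library and lost with the replicate block (0.0686). Against naive eyes, at 13.5, 13.6 and 12.4 FPKM, the change was 0.90 (limma adjusted p = 0.00462). At 3 weeks SETD7 again lay above its controls, with 15.5, 14.2 and 15.8 FPKM against 11.4, 12.1 and 12.1 FPKM, but the change of 0.34 was not called (limma adjusted p = 0.166).

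In the frog hindbrain SETD7 rose from 11.9, 13.5 and 12.8 FPKM to 17.2, 17.7 and 16.6 FPKM at 7 days (change 0.42, SE 0.07, limma adjusted p = 0.0393). The groups did not overlap, but no fit without 1 library kept the call, and neither did the replicate block (0.118). Neuron markers summed to 1527 to 1857 FPKM in ONC eyes at 11 days and to 832.2 to 877.6 FPKM in contralateral eyes. Dividing-cell markers also stood higher and oligodendrocyte markers lower in these ONC eyes, at the levels given above. The part of these cell types in the SETD7 difference was not tested.

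**Figure D3:**
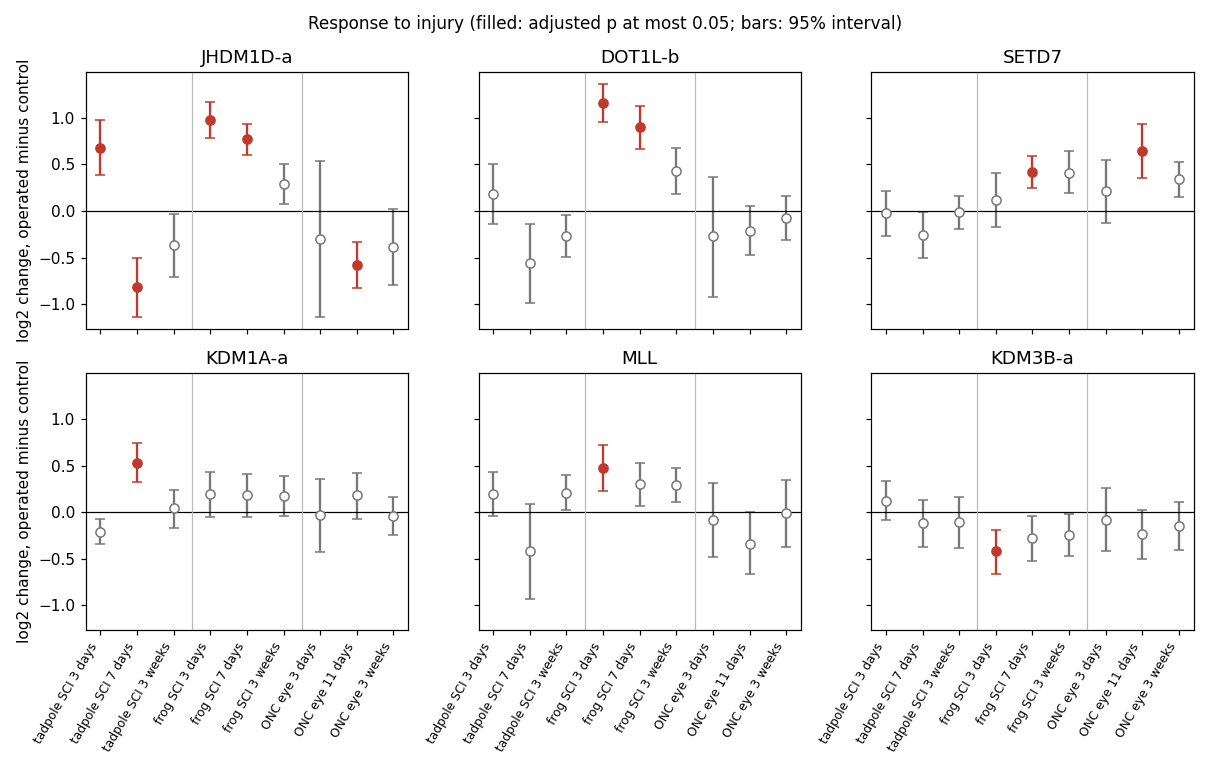
Log2 change, operated minus control (vertical axes), of the members called in at least 1 comparison, in each of the 9 injury comparisons (horizontal axes), with 95% intervals and filled points where the adjusted p was at most 0.05. JHDM1D-a lies above 0 in frogs, at 0.98 and 0.77 at 3 and 7 days, and in tadpoles at 3 days, at 0.68. It lies below 0 in tadpoles at 7 days and in ONC eyes at 11 days.

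Whether tadpoles and frogs responded differently was tested as the difference of their responses. At 3 days 5 of 54 members differed, against 5.91% of all entries, and at 7 days 4 of 55, against 4.35%. For the peak of optic axon growth, the response of the eye at 11 days was compared with that of the frog hindbrain at 7 days, and 3 of 54 differed, against 5.21%. All 3 tests use the unoperated frog libraries, so they are not independent of each other. The test at 3 days also uses the tadpole controls whose titles give no time.

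DOT1L-b was called in all of them. In tadpoles it held 11.9, 8.13 and 9.66 FPKM after SCI and 10.01, 7.57 and 8.30 FPKM in controls at 3 days, and 8.99, 10.9 and 16.4 FPKM and 19.4, 15.7 and 17.7 FPKM at 7 days. In eyes of 11 days it held 9.17, 7.62 and 7.74 FPKM after ONC and 9.56, 10.1 and 8.86 FPKM contralaterally. In each of these 3 comparisons the groups overlapped, and those of the frog did not. The tadpole response was lower than the frog response by a difference of -0.98 at 3 days (limma adjusted p = 0.014) and -1.46 at 7 days (0.00678), and the eye response by -1.11 (0.00108). Each was called in all 19 alternatives. Every alternative of these tests kept unoperated frog libraries with the letter R as the frog baseline, so none can test that baseline. JHDM1D-a differed by -1.59 between tadpole and frog at 7 days (limma adjusted p = 0.000592) and by -1.35 between eye and frog (5.13e-05). At 3 days, when it was called higher in both animals, its difference of -0.30 was not called (0.307). JHDM1D-b differed between eye and frog by -0.86 (limma adjusted p = 0.00699), although neither response was called by itself, and this was lost when all groups of a tissue were fitted together (0.188).

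The other differences were smaller. At 3 days both KDM3A entries, H3K9 demethylases, responded lower in tadpoles than in frogs, with differences of -0.51 (limma adjusted p = 0.0249) and -0.46 (0.0386), and so did KDM1A-b at -0.37 (0.0172). In the tadpole KDM3A-a stood at 12.6, 13.4 and 13.7 FPKM after SCI and at 16.1, 15.3 and 17.2 FPKM in controls, in the frog at 11.9, 13.0 and 10.9 FPKM and at 9.45, 10.1 and 10.8 FPKM. KDM3A-b stood at 15.8, 14.3 and 13.6 FPKM against 18.2, 16.8 and 19.6 FPKM in the tadpole, and at 9.90, 10.1 and 8.83 FPKM against 8.36, 8.70 and 8.76 FPKM in the frog. For both entries, every operated library was thus below its controls in the tadpole and above them in the frog. KDM1A-b showed the same order, with 30.4, 31.7 and 30.7 FPKM against 35.5, 34.2 and 35.7 FPKM in the tadpole and 17.7, 17.96 and 18.8 FPKM against 15.6, 15.9 and 16.1 FPKM in the frog. KDM3B-a differed in the other direction, by 0.55 (limma adjusted p = 0.022), being higher after SCI in the tadpole, at 4.03, 4.08 and 3.84 FPKM against 3.49, 3.71 and 3.64 FPKM. Of the 12 fits without 1 library, 9 lost the difference of KDM3A-b (limma adjusted p up to 0.0932), 5 that of KDM3A-a (up to 0.0667), 4 that of KDM3B-a (up to 0.0561) and 0 that of KDM1A-b. Neither KDM3A entry nor KDM1A-b was called at 3 days in the tadpole or the frog by itself. Dividing-cell markers were lower and oligodendrocyte markers higher after SCI in these tadpoles, at the levels given above, and their part was not tested. At 7 days SETD7 responded lower in tadpoles, by -0.68 (limma adjusted p = 0.0154), and KDM5B-a higher, by 0.45 (0.0251). KDM5B-a was called in neither animal by itself. SETD7 held 11.1, 14.6 and 12.4 FPKM in transected tadpoles, below 14.9, 16.1 and 14.7 FPKM in their controls. KDM5B-a held 28.2, 30.5 and 27.8 FPKM in transected tadpoles, above 21.2, 22.4 and 24.6 FPKM in their controls, and in frogs 14.01, 14.6 and 14.3 FPKM, below 15.2, 15.8 and 15.7 FPKM. Its difference was lost in 7 of the 12 fits without 1 library and with the replicate block, with limma adjusted p up to 0.0755, whereas that of SETD7 was kept in all 19 alternatives.

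The ratio of 2 entries within a library does not depend on how that library was scaled. DOT1L-a exceeded DOT1L-b by 2.90 to 3.44 times in the 3 unoperated frog libraries. In the 9 transected frog libraries the ratio was 1.31 to 1.97, and in tadpole controls of 3 weeks 1.05 to 1.29. The unoperated frogs thus stood apart from all their comparison groups. Such separation from the 9 transected libraries was found for 4 of the 19 member symbols with enough expression, which were DOT1L, KDM3B, KDM4A and SETD3, or 21.1%, and for 336 of 4813 symbols of the whole table, or 6.98%. For KDM3B the ratio of a to b was 0.237 to 0.253 in unoperated and 0.161 to 0.223 in transected frogs. As given above, the letter R is on these 3 libraries, and its part in the ratios cannot be told apart from that of the injury.

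Over the 17 groups, the ratio of the 2 entries stayed within a log2 range of 1 for 16 of 21 symbols, and the median range was 0.66. The same entry was the higher one in every group for 14 symbols. The widest range, 2.79, was that of JHDM1D, whose entries were nearly equal in tadpole controls of 3 days, at a ratio of 0.93, and stood at 6.43 in frogs 3 days after SCI. SUV39H1, SUV39H2, DOT1L and KDM3B had ranges of 1.90, 1.76, 1.74 and 1.14. The a entries of both SUV39H symbols had means under 1 FPKM. The narrowest, 0.17, was that of the H3K4 demethylase KDM5C. Reads that matched both homeologs equally had been split at random by the authors, and such reads move the ratio toward 1.

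**Figure D4:**
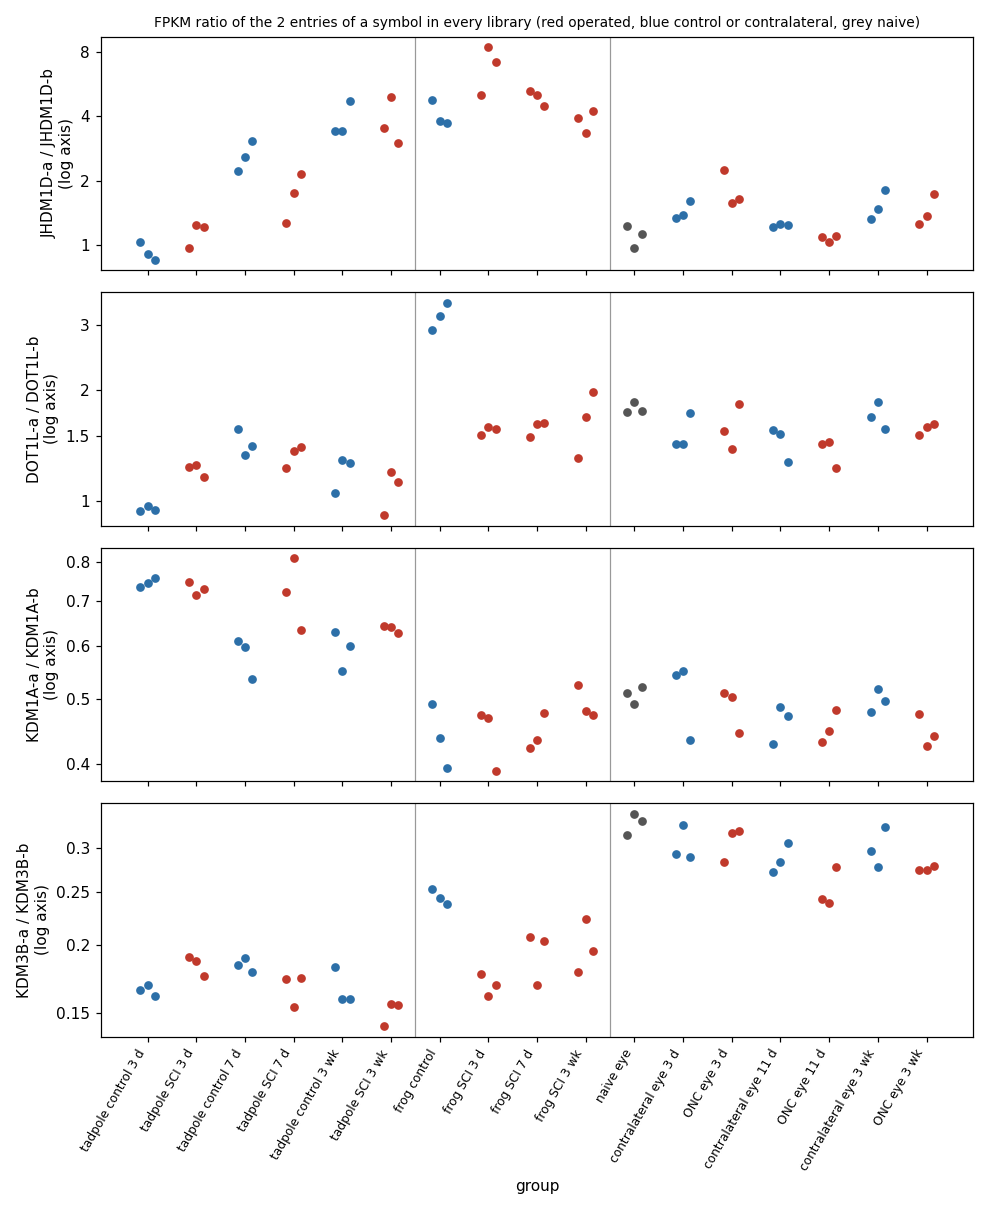
FPKM ratio of entry a to entry b (vertical axes, log scale) for JHDM1D, DOT1L, KDM1A and KDM3B in every library, by group (horizontal axis). The DOT1L ratio of the 3 unoperated frog libraries, 2.90 to 3.44, lies above that of all 9 transected frog libraries.

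More members differed between the first 2 groups of tadpole controls than in any injury comparison. The titles of the 3-day controls read Unop and give no time, whereas those of the later tadpole controls read Control with a time. This difference of title and the difference in age cannot be told apart. Between tadpole controls of the 3-day and 7-day groups 29 of 55 were called, 17 higher and 12 lower at 7 days, where 51% of all entries were called, 24.9% higher and 26% lower. The H3K4 methyltransferases MLL, MLL3, MLL2, SETD1B and SETD7 rose, by 1.08 for MLL (SE 0.12, limma adjusted p = 0.000156), 1.04 for MLL3, 0.94 for MLL2, 0.84 for SETD1B and 0.34 for SETD7, as did both MLL5 entries, by 0.76 and 0.78. Both DOT1L entries rose, a by 1.56 to 30.4, 20.9 and 24.9 FPKM and b by 0.99, as did both SETD2 entries, by 0.95 and 1.04. The H3K27 demethylase KDM6A rose by 0.45. The largest rise was that of JHDM1D-a, 1.71 (SE 0.10, limma adjusted p = 1.26e-05), from the 7.92 to 9.11 FPKM given above to 26.8 FPKM or more.

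Of 9 H3K4 demethylase entries, 4 fell and none rose, beside 26% of all entries called lower and 24.9% higher. The 4 were both entries of KDM1A, a (-0.84) and b (-0.49), and both of KDM5B (-0.47 and -0.42). Whether this family differs from all entries was not tested. Both KDM3A entries fell as well (-0.46 and -0.54). Among H3K9 methyltransferases SUV39H1-b fell, from 2.15, 2.85 and 2.30 FPKM to 1.11, 0.611 and 1.21 FPKM (change -1.01, SE 0.19, limma adjusted p = 0.00224), without overlap. Dividing-cell markers fell over the same days from 236.5 to 269.8 FPKM to 65.11 to 68.96 FPKM and oligodendrocyte markers rose from 2370 to 2546 FPKM to 5026 to 5256 FPKM, and their part in these changes was not tested. From 7 days to 3 weeks 0 of 55 members were called by limma, against 0.574% of all entries, and 16 had an unadjusted p under 0.05. The share of all entries at that unadjusted p was not computed.

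Unoperated frogs differed from tadpole controls of 3 weeks in 23 of 54 members, 10 higher and 13 lower, where 34.6% of all entries were called, 18.1% higher and 16.4% lower. MLL3 held 8.95, 7.73 and 8.62 FPKM in frogs and 4.33, 4.60 and 3.75 FPKM in tadpoles (change 0.92, limma adjusted p = 0.000772). MLL2, or KMT2D, held 10.7, 10.7 and 11.8 FPKM and 6.67, 6.96 and 6.15 FPKM (change 0.71, limma adjusted p = 0.000995). These H3K4 methyltransferases differed most among the members higher in frogs. Both SETD2 entries were higher in frogs, by 0.57 and 0.58. KDM1A-a was lower, at 7.66, 6.94 and 6.36 FPKM in frogs and 12.1, 10.2 and 11.9 FPKM in tadpoles (change -0.67, limma adjusted p = 0.00246), as were KDM1A-b and both KDM4A entries. The 2 DOT1L entries went opposite ways, a being higher by 0.57, and b, at the levels given above in frogs and 23.2, 20.6 and 20.03 FPKM in tadpoles, lower with a change of -0.80. No other symbol did so. Oligodendrocyte markers summed to 5531 to 6653 FPKM in these tadpoles, erythroid markers to 2.81 to 12.39 FPKM, neuron markers to 2890 to 3543 FPKM and dividing-cell markers to 38.3 to 41.15 FPKM. In frogs, the first and second lay higher, at the levels given above, and the others lower, neurons at 2385 to 2514 FPKM and dividing cells at 27.98 to 29.94 FPKM, and their part was not tested. These comparisons rest on the libraries with the letter R.

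Most members called between the naive eye and the unoperated frog hindbrain were lower in the eye. The hindbrain side again rests on the libraries with the letter R. Of 55 members 37 were called, 10 higher and 27 lower in eye, where 77.3% of all entries were called, 41.4% higher and 35.9% lower. The median difference was -0.24 over the members and 0.08 over all entries. Neuron markers summed to 844 to 877.6 FPKM in naive eyes and oligodendrocyte markers to 80.22 to 89 FPKM, below the frog hindbrain levels given above. Photoreceptor markers, at 7703 to 8377 FPKM, and dividing-cell markers, at 112.3 to 118.2 FPKM, lay above those of the frog hindbrain. The part of these cell types was not tested. The H3K4 methyltransferases MLL, MLL2, MLL3 and SETD1B and both MLL5 entries were lower in eye, led by MLL3 at 2.38, 2.06 and 2.15 FPKM against 8.95, 7.73 and 8.62 FPKM (-1.73, limma adjusted p = 1.23e-06), MLL (-1.42) and MLL2 (-1.33). The H3K36 methyltransferase SETD2 was lower with both entries, SETD2-b at 2.63, 3.10 and 2.65 FPKM against 9.18, 9.73 and 10.9 FPKM (-1.66, limma adjusted p = 1.79e-06) and SETD2-a (-1.46), as were both SETD5 entries (-0.70 and -1.24). KDM2B-b, a H3K36 demethylase that recruits Polycomb complexes, was lower as well (-1.13).

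Members that were higher in the eye included KDM5B-b, at 30.6, 30.9 and 30.7 FPKM against 16.6, 17.9 and 18.6 FPKM (0.78, limma adjusted p = 7.39e-06), and both entries of SUV39H2, a H3K9 methyltransferase (0.58 and 0.61). SUV39H2-a had means of 0.602 FPKM in naive eyes and 0.2385 FPKM in the frog hindbrain. It reached the level for testing, 0.45 FPKM, only through the eye, so only a higher call was open to it. Its call therefore adds nothing to that of SUV39H2-b. For JHDM1D and SETD3 the 2 entries went opposite ways. JHDM1D-a was lower in eye (-1.04) and JHDM1D-b higher (0.77), at 13.6, 13.4 and 13.2 FPKM against 6.48, 8.30 and 8.17 FPKM. Under median-of-ratios scaling 10 members were called higher and 28 lower in the eye, and the medians were -0.26 and 0.05.

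Contralateral eyes were also compared with naive eyes, since an eye opposite a crushed nerve is not an untouched one. At 3 days 0 of 55 members were called by limma, against 0.102% of all entries, and at 11 days 0 of 55, against 9.18%, while 4 and 10 members had an unadjusted p under 0.05. For that unadjusted p the share of all entries was not computed. At 3 weeks 15 of 55 were called, all higher, where 8.26% of all entries were called, 4.42% higher and 3.85% lower. JHDM1D-a held 26.2, 29.7 and 22.3 FPKM in contralateral eyes, above the naive eyes given before (change 0.79, limma adjusted p = 0.0196). SETD2-b held 4.77, 4.71 and 4.57 FPKM against 2.63, 3.10 and 2.65 FPKM (change 0.66, limma adjusted p = 0.0195). MLL, MLL2, MLL3, both DOT1L, both EHMT1 and both SETD5 entries were among the others, with changes from 0.37 to 0.58. The ONC eyes of 3 weeks, set against the same naive eyes, had 7 members higher and 2 lower, beside 8.98% of all entries called. SETD2-b (0.65), MLL3 (0.57), SETD5-b (0.53), DOT1L-b (0.51) and MLL2 (0.47) were higher, and JHDM1D-a (0.40, limma adjusted p = 0.163) was not called. For these called members the higher level was thus not particular to the contralateral eye. Several marker sums were lower in these contralateral than in naive eyes, without overlap: dividing cells at 66.05 to 95.05 against 112.3 to 118.2 FPKM, oligodendrocytes at 54.7 to 68.75 against 80.22 to 89 FPKM, neurons at 741.4 to 837.1 against 844 to 877.6 FPKM and erythroid cells at 1413 to 2234 against 2365 to 3215 FPKM. Their part in the 15 calls was not tested. The count fell to 0 without contralateral replicate 1 or 2 or naive replicate 2 or 3, to 8 without naive replicate 1, and to 0 when all eye groups were fitted together.

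**Figure D5:**
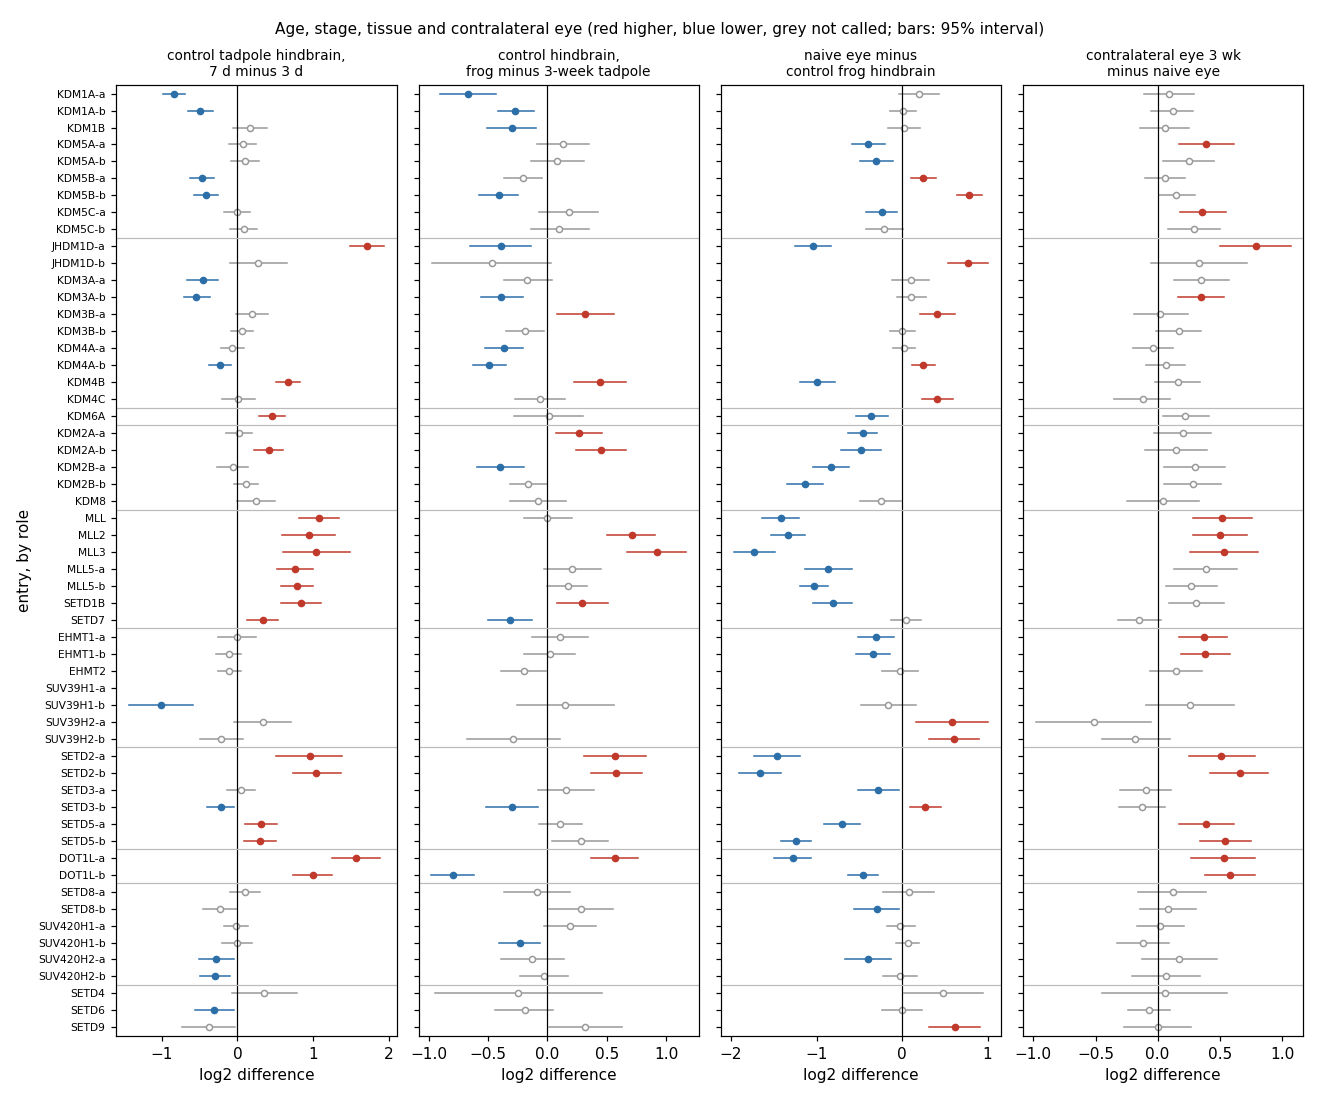
Log2 difference (horizontal axes) of each entry (vertical axis, by role) between ages, stages, tissues and contralateral and naive eyes, with 95% intervals, red where called higher and blue where called lower. MLL, MLL2, MLL3, MLL5 and SETD1B are red for age in the tadpole, from 0.76 to 1.08, and blue for eye against hindbrain.

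Genomic span was set against these differences as well. The span of the entries, as deposited, ran from 5.6 kb for SUV39H1-a to 183.4 kb for KDM4B, with a median of 36.2 kb. As a description across genes, which share libraries and are not replicates, the rank correlation of span with the log2 difference was 0.43 for tadpole age (n = 55), -0.50 for eye against hindbrain (n = 55) and 0.49 for the contralateral eye at 3 weeks (n = 55). For the contralateral eye at 3 and 11 days, where 0 members were called, it was 0.48 and 0.28. Between the later tadpole controls it was 0.11, and for frog against tadpole 0.22. The correlation over all entries of the expression table was not computed. For injury at 3 days, 7 days and 3 weeks it was 0.38, -0.36 and -0.10 in tadpoles and 0.26, 0.07 and -0.01 in frogs, and in the eye, from the earliest to the latest time after ONC, -0.33, -0.33 and -0.06 (n = 54 or 55).

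The neighbouring genes of histone methylation, a list of 34 other symbols with 59 tested hindbrain entries, contained the subunits of Polycomb complex PRC2, which methylates H3K27. In tadpoles 3 rose and 2 fell at 3 days, where 1.85% of all entries were called, and 5 rose and 3 fell at 7 days, where 4.91% were. In frogs 4 rose and 4 fell at 3 days, where 11% of all entries were called, and 3 rose and 1 fell at 7 days, where 1.42% were. In ONC eyes 2 rose and 2 fell at 11 days, where 2.86% were called, and in the other injury comparisons none was called. Both entries of JARID2, which recruits PRC2, and 1 of the 2 entries of SUZ12, its scaffold, rose in tadpoles at 3 days (0.80, 1.21 and 0.53) and fell at 7 days (-0.76, -0.81 and -0.81). In frogs they rose at 3 days (0.59, 0.79 and 0.57) and at 7 days (0.70, 0.89 and 0.72). The first JARID2 entry fell in ONC eyes at 11 days (-0.70, limma adjusted p = 0.0422). The other SUZ12 entry was not called in any injury comparison. An entry of the catalytic subunit EZH2 rose in tadpoles at 7 days (0.56, limma adjusted p = 0.0221) and in ONC eyes at 11 days (0.55, 0.0201), and fell in frogs at 3 days (-0.90, 0.007) and at 7 days (-0.81, 0.041). Its other entry fell in frogs at 3 days (-0.58, limma adjusted p = 0.0318) and was not called in the other injury comparisons. Both entries of HDAC1, a deacetylase that partners KDM1A, fell in tadpoles at 3 days (-0.35 and -0.46) and rose at 7 days (0.52 and 0.50). The second of them also fell in frogs at 3 days (-0.48, limma adjusted p = 0.0233). Tadpole controls themselves differed between 3 and 7 days, by 1.91 and 2.36 for JARID2 and by -1.14 and -1.24 for HDAC1. The SUZ12 entry differed by 1.46.

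The remaining members gave no call after injury. In all, 45 of the 56 were called in none of the 9 injury comparisons and 3 response differences. The share of all entries called in none of them was not computed, so this count does not set the members apart. Among them were both EHMT1 entries and EHMT2, which dimethylate H3K9, the H4K20 methyltransferases SETD8, SUV420H1 and SUV420H2, KDM6A, KDM4B, KDM4C, all KDM2 and KDM5A entries, and the SETD5 and SETD3 entries. Over all 19 comparisons 8 members were never called, namely EHMT2, KDM3B-b, KDM5C-b, KDM8, SETD4, SETD8-a, SUV39H1-a, which was never tested, and SUV420H1-a. The share of all entries never called was likewise not computed.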

How the data were processed

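The authors deposited FPKM per gene and library, as estimated by CuffDiff2. In the submitters' notes and the study's methods, single-end 75 bp reads of ribosome-depleted, stranded total RNA were aligned with Bowtie2 2.2.9 and TopHat2 2.1.1 to the Xenbase genome and assigned to Mayball gene models. Reads matching both homeologs equally were split at random. FPKM are not counts, so depth is known only approximately.

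From these values log2(FPKM + 0.5) was tested with limma 3.58.1 in R 4.3.3, with a variance trend, on the 2 groups compared (4 for a difference of responses). Entries with a group mean of at least 0.45 FPKM were tested, and p-values adjusted over all of them. Tables were made with Python 3.11.15, pandas 2.3.3, numpy 2.4.6, scipy 1.17.1 and matplotlib 3.10.9. The scripts were tested on simulated data. By rule, values in every library are given for members called after injury or in a difference of responses, for JHDM1D, for the 2 largest rises and 2 largest falls in each other comparison, and for the highest and lowest mean. Other members named with fewer values were chosen after their values were seen. The members and lists were chosen with earlier results of these data known.

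Same-numbered libraries deviated together, with every correlation above 0.1, for tadpole SCI at 3 days (0.276, 0.169 and 0.187), tadpole control age and contralateral against naive eyes at 3 weeks. Tadpole pools were paired with controls in the study's methods, and the 2 eyes come from the same frogs, but the labels do not state that numbers mark these pairs. Tadpole controls of different age, and contralateral and naive eyes, are of different animals, so such correlations do not by themselves show pairing. The block is therefore given beside each named result whose call it ended, and beside DOT1L-a in tadpoles at 3 days, a call it added. It also added MLL3 in frogs at 3 days (0.47, limma adjusted p = 0.0288). In the difference of tadpole and frog responses at 3 days it added KDM1A-a (-0.40, limma adjusted p = 0.0344). Alternatives were median-of-ratios scaling, pseudocounts of 0.1 and 1, no minimal expression, 0.45 FPKM in every library, a replicate block, 1 fit over every group of a tissue, leaving out each library and, chosen after seeing the data, naive eyes as ONC controls. Sequences were not used here.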

Additional observations from a re-analysis of the deposited data

Results flagged for a closer look

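12 results differed between experiments by a test of the difference of responses in limma. Between tadpole and frog SCI at 3 days these were DOT1L-b (-0.98), KDM1A-b (-0.37), KDM3A-a (-0.51), KDM3A-b (-0.46) and KDM3B-a (0.55), each as the log2 response of the tadpole minus that of the frog. At 7 days they were DOT1L-b (-1.46), JHDM1D-a (-1.59), KDM5B-a (0.45) and SETD7 (-0.68). Between the ONC eye at 11 days and frog SCI at 7 days they were DOT1L-b (-1.11), JHDM1D-a (-1.35) and JHDM1D-b (-0.86). All 12 rest on the 3 unoperated frog libraries, and those at 3 days also on the tadpole controls whose titles give no time.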

How the results depend on the processing

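Counts of members called moved by more than 1.5 times under these alternatives, and the cause was not tested. In this paragraph the share of all entries called is given only for naive eyes as controls, so the other counts cannot be set against it. In tadpole SCI at 3 days the count of 1 became 0 with no minimal expression, 2 with the replicate block and 2 with every group of the tissue in 1 fit. That last fit also gave 14 members in tadpole SCI at 7 days, 12 in frog SCI at 3 days, 1 in frog SCI at 3 weeks (SETD7), 1 in ONC at 3 days (SETD6), 1 in ONC at 11 days (SETD7, with JHDM1D-a lost), 7 between tadpole controls of 3 weeks and 7 days, and 0 in contralateral eyes at 3 weeks. With 0.45 FPKM in every library, frog SCI at 3 weeks gave 1 (DOT1L-a), and with no minimal expression contralateral eyes at 3 weeks gave 9. Naive eyes as controls gave 6 members in ONC at 11 days, where 20% of all entries were called, and 9 at 3 weeks, where 8.98% were. The replicate block gave 0 in ONC at 11 days, where the eyes are of the same frogs and same-numbered libraries correlated at 0.289, -0.081 and 0.17, and it ended the calls of KDM3B-a and SETD7 in frogs and the 7-day difference of KDM5B-a. In tadpole SCI and in the 3 comparisons with every correlation above 0.1, the block ended no call of a named member.

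Leaving out 1 library at a time gave 0 members in tadpole SCI at 3 days, 0 to 12 at 7 days, 2 to 3 in frog SCI at 3 days, 1 to 2 at 7 days, and 0 to 1 in ONC at 11 days. It gave 23 to 29 for tadpole age, 15 to 18 for frog against tadpole, 33 to 38 for eye against hindbrain, and 0 to 3 and 0 to 12 for contralateral eyes at 3 days and 3 weeks. The differences of responses gave 2 to 6 between tadpole and frog at 3 days, 3 to 9 at 7 days, and 3 to 4 between eye and frog. The share of all entries called in each of these fits is not given here, so the counts cannot be set against it. For the difference at 3 days, 45.4% of all calls were higher, or 57.4% under median-of-ratios scaling. Of 38 results for named members, 22 were called in each alternative tried, and of 568 values 86 were not past the threshold and 0 had the opposite sign. Among injury calls, only DOT1L-b in frogs at 3 days and JHDM1D-a in frogs at 3 and 7 days were called in each. These calls rest on the controls with the letter R in every alternative. The 38 results were picked because they were called, and the alternatives use mostly the same libraries, so a kept sign is little evidence.

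With 3 pools a group and FPKM without counts, changes of weakly expressed members such as SUV39H1 and SETD4 were measured with little precision.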
